A study of Mus musculus with 9 samples.

Results

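The renin-angiotensin-aldosterone system was followed through 9 genes, Agt, Ren1, Ace, Enpep, Lnpep, Agtr1a, Agtr2, Mas1 and Nr3c2. They were chosen by gene name from 41710 gene names in the deposited tables, and the reads and TPM of all transcripts of a name were summed. TPM corrects reads for transcript length and library total, so that levels of different genes can be compared. The hearts came from male mice of strain FVB/N at an age of 8 months, with 3 libraries for each of 3 groups. Tg-RKIP mice carry an RKIP transgene driven by the alpha-MHC promoter, which directs it to the myocardium. A further group was labelled Tg-GRK2, with a transgene whose promoter the labels do not give, and the controls were non-transgenic FVB mice without either transgene. The labels number the hearts of a group but say no more of how they were sampled, so p-values measure the spread between these libraries.

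In this system angiotensinogen, a plasma protein encoded by Agt and made mainly by the liver, is cut by renin to angiotensin I, and angiotensin-converting enzyme (Ace) turns it into angiotensin II. Angiotensin II raises blood pressure and promotes growth and fibrosis of the heart through its type 1 receptor, whose main gene in the mouse is Agtr1a, while Agtr2 and Mas1 encode receptors described as opposing it. Aldosterone, a steroid of the adrenal cortex, acts through the mineralocorticoid receptor Nr3c2.

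Total reads per library ranged from 25458108 to 33447654. The RKIP gene, Pebp1, was at 15967 to 16371 TPM in the Tg-RKIP libraries and at 316 to 330 TPM in the other 6. Mouse Grk2 did not pass the test between hearts labelled Tg-GRK2 and FVB (log2 fold change 0.05 ± 0.04 (SE), adjusted p = 0.354, edgeR's quasi-likelihood test), so that this group is named by its label. Heart muscle markers summed to 28126 to 30034 TPM in all 9 libraries, but single markers went opposite ways in TPM. In Tg-RKIP against FVB, mean TPM was 9507 against 7660 for Tnnt2 and 11515 against 8728 for Actc1, while it was 6484 against 7374 for Myh6, 58.3 against 207 for Ryr2 and 2246 against 4475 for Pln. Mitochondrially encoded genes took 11.5 to 11.8% of reads in Tg-RKIP and 22.4 to 23.2% in the other 2 groups. Airway and alveolar markers summed to 55.6 to 57.8 TPM in Tg-RKIP, 137 to 146 TPM in hearts labelled Tg-GRK2 and 0.03 to 0.12 TPM in FVB. In Tg-RKIP and hearts labelled Tg-GRK2 the sums came mainly from Scgb1a1 (mean TPM 49.4 and 128) and Scgb3a2 (6.54 and 13.7). The alveolar markers Sftpc, Sftpb and Ager had at most 10 reads in any library. The part of these markers in the results was not tested. Replicate 1 labelled Tg-GRK2 had 1.31% of its reads on ribosomal Rn18s, against 0.17 to 0.27% in the other 8. No count of genes called among the 9 members, Mas1 included, changed by more than 1 when any library was left out.

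The TMM method scales libraries so that most genes do not move, and the median log2 fold change of all 15504 genes tested between Tg-RKIP and FVB was 0.01. With scaling to library size only this median was 0.38, and the split of all genes called moved from 5709 higher and 5751 lower to 9709 higher and 2650 lower. On log2(TPM + 0.1) the median was 0.43. Marker levels and sums are given in TPM and hold this shift, so a small rise in them need not be a rise on the TMM scale. Fold changes below are relative to the TMM scale unless another is named, and each member whose direction depends on this choice is named.

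Of the 9 members, 7 passed the expression filter, but Mas1 did so only through hearts labelled Tg-GRK2, where its reads were highest, and it is described by its values and not counted here. Ace rose between Tg-RKIP and FVB at an adjusted p under 0.05, while 36.8% of all genes tested were higher. Agtr1a, Nr3c2 and Lnpep fell, while 37.1% of all genes tested were lower. Agt and Enpep did not pass the test, and Ren1 and Agtr2 were too low to be tested. In hearts labelled Tg-GRK2, Ace and Enpep were higher than in FVB, beside 12.2% of all genes that were higher, and no member was lower, beside 12.2% of all genes that were lower. The remaining tested members, Agt, Agtr1a, Lnpep and Nr3c2, had log2 fold changes between -0.07 and 0.06. In Tg-RKIP against hearts labelled Tg-GRK2, Ace was higher (37.9% of all genes) and Agtr1a, Enpep, Lnpep and Nr3c2 were lower (36.6% of all genes). Nothing particular to the members is drawn from these counts, given the shares of all genes called.

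**Figure D1:**
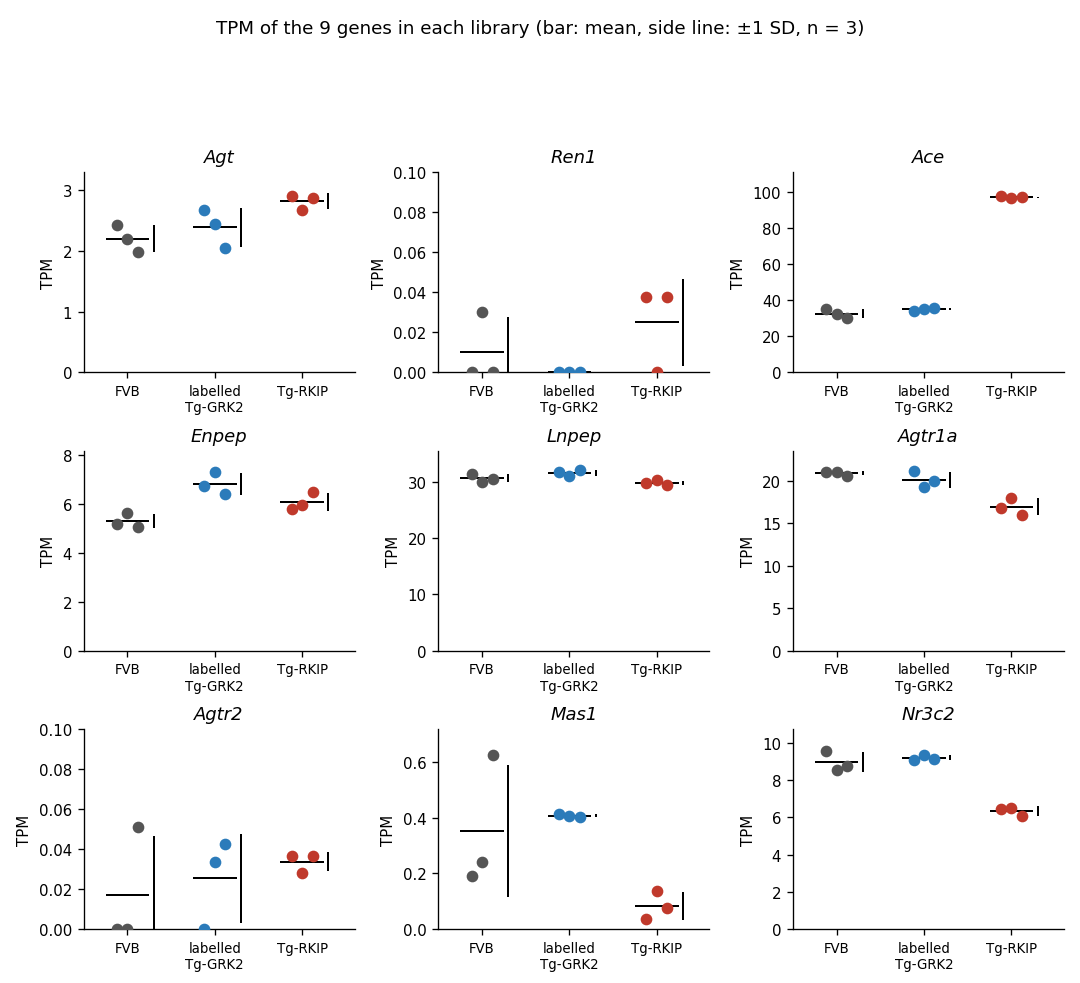
TPM (vertical axes, linear from 0) of each member in the 9 libraries, in FVB (grey), hearts labelled Tg-GRK2 (blue) and Tg-RKIP (red). Points are libraries, horizontal bars the mean of 3 and the line beside them 1 SD either way, cut at 0. The 3 Tg-RKIP libraries lie near 97 TPM for Ace, above 30.4 to 35.5 TPM in the other 6 libraries, and lowest for Mas1, Nr3c2 and Agtr1a.

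Levels per length fell in the same order in all 3 groups, with Ace first, followed by Lnpep, Agtr1a, Nr3c2, Enpep, Agt, Mas1, Agtr2 and Ren1. In FVB the first of these neighbours overlapped, with Ace at 30.4 to 35.0 TPM and Lnpep at 29.9 to 31.4 TPM. In Tg-RKIP they were far apart, with Ace at 96.7 to 97.4 TPM and Lnpep at 29.5 to 30.2 TPM. Nr3c2 and Enpep overlapped in Tg-RKIP only, at 6.04 to 6.50 TPM and 5.79 to 6.48 TPM. Agtr2 and Ren1 were at the floor everywhere and their order carries no information.

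The substrate and its first protease came first. Tg-RKIP libraries had 92, 109 and 90 Agt reads, hearts labelled Tg-GRK2 had 96, 84 and 83, and FVB had 83, 86 and 67. In reads and in TPM the Tg-RKIP libraries were above FVB, while after TMM scaling these groups overlapped. In TPM the level was 2.81 ± 0.13 (SD, n = 3) in Tg-RKIP, 2.39 ± 0.32 in hearts labelled Tg-GRK2 and 2.20 ± 0.22 in FVB. On the TMM scale Agt did not pass the test between Tg-RKIP and FVB (log2 fold change -0.07 ± 0.14 (SE), adjusted p = 0.676, edgeR's quasi-likelihood test). Its direction depended on the scale, since with library size only the log2 fold change was 0.31 (adjusted p = 0.0437 in edgeR), which is 0.07 below the median of all genes under that scaling. Liver markers (Alb, Apoa1, Ttr, Fgb and Serpina1a), a sign of plasma or liver RNA, summed to at most 4.16 TPM in any library. Both Agt transcripts of the tables have the same exons, so their reads cannot be told apart. Ren1, encoding renin, had 1, 0 and 1 reads in Tg-RKIP, none in hearts labelled Tg-GRK2, and 0, 1 and 0 in FVB. No library exceeded the floor of 3 reads, and a change in Ren1 was not detectable at this depth.

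Ace rose in Tg-RKIP at every scale tried. It had 5985, 7752 and 5849 reads in Tg-RKIP, 2682, 2670 and 2988 in hearts labelled Tg-GRK2 and 2356, 2629 and 2274 in FVB. Per length this was 97.0 ± 0.39 TPM (SD, n = 3), 34.9 ± 0.62 TPM and 32.6 ± 2.3 TPM. Each Tg-RKIP library was far above all 6 others, and FVB and hearts labelled Tg-GRK2 overlapped in TPM. The log2 fold change of counts was 1.06 ± 0.02 (SE, adjusted p = 1.39e-20, edgeR's quasi-likelihood test), or 2.09-fold, and ranged from 1.05 to 1.06 when any of the 6 libraries compared was left out. Hearts labelled Tg-GRK2 were 0.11 ± 0.02 higher than FVB on the log2 scale (adjusted p = 0.00235 in edgeR), a call lost in limma on log2(TPM + 0.1) with 0.10 and adjusted p = 0.151. In these bulk hearts a change in the number of cells of a type and a change in RNA per cell cannot be told apart. Endothelial markers, which mark the main somatic source of Ace, summed to 349 to 355 TPM in Tg-RKIP, 243 to 248 TPM in hearts labelled Tg-GRK2 and 239 to 245 TPM in FVB. Emcn (mean TPM 122 in Tg-RKIP against 51.0 in FVB), Pecam1 (113 against 71.5) and Tie1 (31.2 against 22.0) were higher in TPM, whereas Kdr (29.3 against 38.9) and Cdh5 (55.8 against 57.6) were not. Macrophage markers (Csf1r, Adgre1, Cd68, C1qa and Mrc1), another cell type that can carry Ace, summed to 263 to 271, 112 to 117 and 104 to 105 TPM, and all 5 were higher in each Tg-RKIP library than in FVB. The part of either in the Ace result was not tested.

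The Ace reads were not spread evenly over the transcripts of the gene. Ace lies at chr11:105858771-105880790 on the plus strand of GRCm39, the build named in the submitters' processing notes. The 25-exon transcript (Ace_2 in the tables, 4906 bases, ENSMUST00000001963) spans the whole gene and has the layout of the somatic enzyme. A 14-exon transcript (Ace_4, 2418 bases, ENSMUST00000001964) starts 7263 bases further on, between exons 12 and 13 of the 25-exon form. Its first exon, at chr11:105866034-105866229, holds 196 bases found in no other Ace transcript, and 12 of its 14 exons are identical to exons of the 25-exon form. This is the layout of the germinal form of Ace, known from the testis, which holds a single catalytic domain and is made from a promoter inside the gene. The starts of both forms have an entry in the RefSeq promoter table (build GRCm38.p6, 300 bases around each start), at chr11:105967698-105967997 and chr11:105974939-105975238, both on the plus strand. They are shown because the reads assigned to these 2 starts changed by different amounts. Capitals mark matches, on either strand, to a TATA box (TATAAA), a GC box (GGGCGG), a cAMP response element (TGACGTCA) and the variant of it described for the germinal Ace promoter (TGAGGTCA).

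somatic Ace promoter: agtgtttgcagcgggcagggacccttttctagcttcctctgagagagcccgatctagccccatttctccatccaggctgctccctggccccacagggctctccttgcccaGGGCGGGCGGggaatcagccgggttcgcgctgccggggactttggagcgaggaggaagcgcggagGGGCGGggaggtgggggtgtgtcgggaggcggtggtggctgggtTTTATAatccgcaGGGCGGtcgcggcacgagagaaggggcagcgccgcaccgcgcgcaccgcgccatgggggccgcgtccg

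germinal Ace promoter: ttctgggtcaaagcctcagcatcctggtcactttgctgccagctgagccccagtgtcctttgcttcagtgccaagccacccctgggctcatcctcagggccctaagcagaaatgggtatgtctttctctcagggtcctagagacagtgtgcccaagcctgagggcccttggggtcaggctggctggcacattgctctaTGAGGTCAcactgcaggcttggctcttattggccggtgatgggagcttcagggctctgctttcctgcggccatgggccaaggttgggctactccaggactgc

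The somatic window held 4 GC boxes, of which 2 overlap, and a TATA box on the minus strand 31 to 26 bases before the start. The germinal window held neither, and its only match was TGAGGTCA, 52 to 45 bases before the start. Of all 32851 promoters in the table, 35.7% held the GC box, 13.6% the TATA box, 1.79% TGACGTCA and 2.17% TGAGGTCA. The start of the 14-exon transcript in the GENCODE M21 annotation of the same build lies 19 bases after the RefSeq start, and that of the 25-exon form 3 bases before it. A match describes the letters only.

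The 14-exon transcript had 1678, 2065 and 1709 reads in Tg-RKIP, 134, 174 and 147 in hearts labelled Tg-GRK2 and 170, 297 and 121 in FVB. Every Tg-RKIP library was far above the other 6. In a fit of 34991 transcripts, its log2 fold change between Tg-RKIP and FVB was 2.91 ± 0.26 (SE, adjusted p = 7.62e-05, edgeR's quasi-likelihood test). The 25-exon transcript had 3467, 4572 and 3352 reads in Tg-RKIP and 1434, 1570 and 1348 in FVB, a log2 fold change of 1.05 ± 0.04 (adjusted p = 2.71e-07 in edgeR). A 20-exon transcript (Ace_3) that starts within the fifth exon of the 25-exon form had 840, 1115 and 788 reads against 695, 746 and 805, and did not pass the test (-0.06 ± 0.08, adjusted p = 0.666 in edgeR). Without FVB replicate 3, whose reads for it were the highest of FVB, the value of Ace_3 was 0.04. The 14-exon form carried 42.5 ± 1.6% (SD, n = 3) of Ace TPM in Tg-RKIP, 9.27 ± 1.8% in hearts labelled Tg-GRK2 and 12.9 ± 4.8% in FVB. In hearts labelled Tg-GRK2 the log2 fold change of the 14-exon form against FVB was -0.43 ± 0.26 (adjusted p = 0.552 in edgeR). Relative to the median of all genes, the log2 fold change of Ace was 1.05 in edgeR and 1.15 in limma on log2(TPM + 0.1). Male germ cell markers (Prm1, Prm2, Tnp1, Acrv1 and Ldhc, listed after these values were seen) summed to at most 0.25 TPM in any library. How reads in shared exons were divided among transcripts is not given in the sources used here, and its part in these values was not tested.

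**Figure D2:**
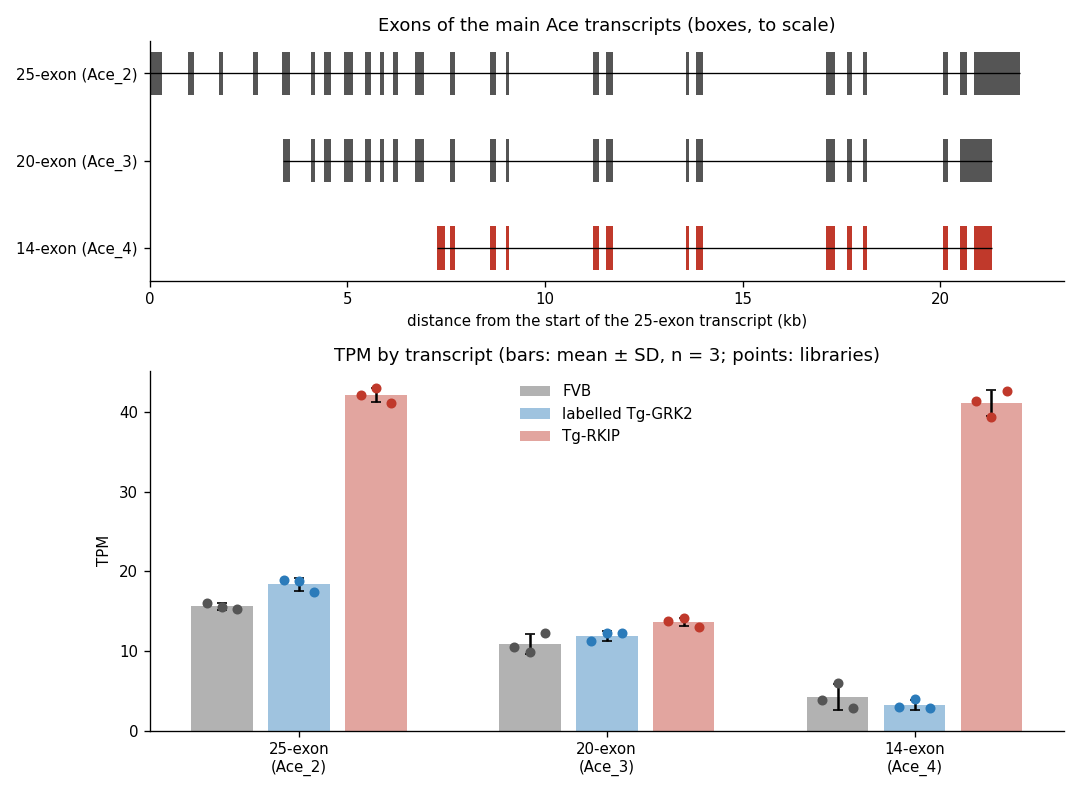
Top, exons of the main Ace transcripts, with the distance in kb from the start of the 25-exon form on the horizontal axis and exons drawn to scale. Bottom, TPM of each transcript by group, with bars for the mean, error bars for 1 SD (n = 3) and points for libraries. The 14-exon form is at 39.5 to 42.7 TPM in Tg-RKIP and at 2.79 to 5.94 TPM in the other 6 libraries, while the 20-exon form lies between 9.89 and 14.1 TPM in all 9.

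Aminopeptidases that trim angiotensin II further were represented by Enpep and Lnpep. Enpep, aminopeptidase A, removes the first residue of angiotensin II. It had 405, 538 and 436 reads in Tg-RKIP, 501, 516 and 553 in hearts labelled Tg-GRK2 and 366, 417 and 363 in FVB, or 6.07 ± 0.36, 6.80 ± 0.47 and 5.28 ± 0.29 TPM (SD, n = 3). Each Tg-RKIP library was above FVB in TPM and below it after TMM scaling. Hearts labelled Tg-GRK2 were above FVB in every library, with a log2 fold change of 0.36 ± 0.06 (adjusted p = 4.96e-05, edgeR's quasi-likelihood test). In Tg-RKIP the value was -0.10 ± 0.06 (adjusted p = 0.113 in edgeR), and its direction depended on the scale, at 0.27 (adjusted p = 0.000207) with library size only. Without Tg-RKIP replicate 3 it was -0.14 and passed the test with adjusted p = 0.0478. Between Tg-RKIP and hearts labelled Tg-GRK2 the log2 fold change of Enpep was -0.46 ± 0.05 (adjusted p = 1.09e-07 in edgeR), but these groups overlapped in TPM. That call was lost with library size only (-0.10, adjusted p = 0.0993 in edgeR) and in limma on log2(TPM + 0.1) (-0.16, adjusted p = 0.0697). Pericyte and smooth muscle markers, which include a known source of Enpep, showed no common direction in TPM. In Tg-RKIP against FVB, mean TPM was 203 against 69.9 for Tagln, 14.7 against 5.31 for Cspg4 and 178 against 169 for Rgs5, but 16.3 against 18.4 for Kcnj8 and 16.6 against 17.8 for Myh11. Their part in the Enpep values was not tested.

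Within Enpep, an annotated nonsense-mediated decay transcript (Enpep_4, ENSMUST00000170918) was without reads in all 3 Tg-RKIP hearts, with 53, 71 and 34 in those labelled Tg-GRK2 and 47, 49 and 22 in FVB. Set against a floor of 3 reads per Tg-RKIP library, its level relative to all reads was at least 12.8-fold lower than in FVB and at least 16.6-fold lower than in hearts labelled Tg-GRK2. The full-length coding transcript (Enpep_3) had 405, 538 and 433 reads in Tg-RKIP and 319, 358 and 340 in FVB, and did not pass the test (log2 fold change 0.10 ± 0.06, adjusted p = 0.269, edgeR). How reads in the exons they share were divided is not given.

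Lnpep encodes the insulin-regulated aminopeptidase, the binding site of angiotensin IV. Reads were 5957, 7806 and 5825 in Tg-RKIP, 7211, 6768 and 8261 in hearts labelled Tg-GRK2 and 6824, 7440 and 6567 in FVB. In TPM the groups lay close together, at 29.8 ± 0.38, 31.6 ± 0.55 and 30.6 ± 0.76 (SD, n = 3), and Tg-RKIP overlapped with FVB. After TMM scaling it fell in Tg-RKIP, with a log2 fold change of -0.46 ± 0.02 (adjusted p = 2.79e-14, edgeR's quasi-likelihood test). Its size depended on the scale, at -0.29 with library size without mitochondrially encoded genes and -0.087 with library size only (adjusted p = 1.72e-10 and 0.00108 in edgeR). In limma on log2(TPM + 0.1), which also changes the unit and the method, the value was -0.04 and the call was lost (adjusted p = 0.282). In hearts labelled Tg-GRK2 the log2 fold change was -0.0033 ± 0.02 (adjusted p = 0.938 in edgeR).

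**Figure D3:**
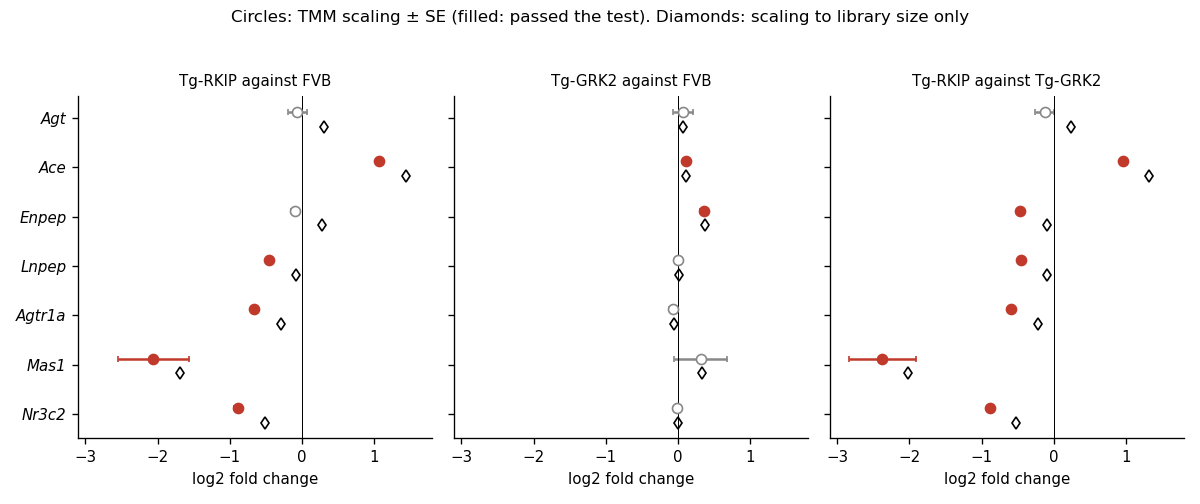
Log2 fold changes (horizontal axes) of the 7 tested members in the 3 comparisons. Circles with SE bars are edgeR values with TMM scaling, filled where the adjusted p was under 0.05, and diamonds are values scaled to library size only, which lie about 0.4 further right where Tg-RKIP is compared. Agt and Enpep change sign between the scales in Tg-RKIP against FVB. Mas1 is in the fit only through hearts labelled Tg-GRK2, so its filled circles are not counted as calls.

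Among the receptors, Agtr1a fell in Tg-RKIP. It had 593, 833 and 576 reads in Tg-RKIP, 842, 741 and 900 in hearts labelled Tg-GRK2 and 810, 881 and 753 in FVB. In TPM this was 16.9 ± 1.0, 20.1 ± 0.91 and 20.9 ± 0.26 (SD, n = 3), and each Tg-RKIP library was below the lowest of the other 6, at 19.3 TPM. The log2 fold change against FVB was -0.66 ± 0.05 (adjusted p = 7.45e-11, edgeR's quasi-likelihood test), and -0.29 with library size only (adjusted p = 1.46e-05). Hearts labelled Tg-GRK2 did not pass the test against FVB (-0.07 ± 0.05, adjusted p = 0.302 in edgeR). The coding transcript Agtr1a_4 carried 96.7 ± 1.7% of Agtr1a TPM in Tg-RKIP and 92.2 ± 2.8% in FVB. Fibroblasts are a cell type known to carry this receptor in the heart. Their markers (Pdgfra, Dcn, Lum, Tcf21 and Col1a1) were all 5 higher in TPM in each Tg-RKIP library than in FVB. The sums were 1913 to 1919 TPM in Tg-RKIP, 868 to 876 TPM in hearts labelled Tg-GRK2 and 800 to 833 TPM in FVB. The part of fibroblasts in the Agtr1a result was not tested.

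Agtr2, encoding the type 2 receptor, had 2 reads in each Tg-RKIP library, 0, 2 and 3 in hearts labelled Tg-GRK2 and 0, 0 and 3 in FVB. All 9 libraries were at or under the floor of 3 reads, so neither a change nor a ratio of Agtr1a to Agtr2 could be given. Agtr1b, the second mouse gene for the type 1 receptor, had 1 read in Tg-RKIP replicate 2 and none in the other 8 libraries.

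Mas1, a receptor described as opposing angiotensin II, was close to the floor. It had 1, 5 and 3 reads in Tg-RKIP, 12, 13 and 15 in hearts labelled Tg-GRK2 and 7, 12 and 11 in FVB. Tg-RKIP did not overlap with either group. The fitted log2 fold change between Tg-RKIP and FVB was -2.06 ± 0.49 (SE), given here without a p, since Mas1 passed the expression filter only with hearts labelled Tg-GRK2 included and was not tested in a fit of Tg-RKIP and FVB alone or with at least 10 reads in every library. Airn, a long noncoding RNA on the opposite strand that covers most of Mas1, had 113 to 136 reads in Tg-RKIP and 139 to 178 in the other 6 libraries. The labels do not state that the libraries kept strand, and reads of these overlapping genes may not be told apart.

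The receptor of aldosterone, Nr3c2, fell in Tg-RKIP. Reads were 614, 799 and 569 in Tg-RKIP, 937, 973 and 1105 in hearts labelled Tg-GRK2 and 947, 1011 and 889 in FVB. In TPM the level was 6.33 ± 0.25 in Tg-RKIP, 9.19 ± 0.12 in hearts labelled Tg-GRK2 and 8.97 ± 0.54 in FVB (SD, n = 3). The highest Tg-RKIP library, at 6.50 TPM, was below the lowest of the others, at 8.56 TPM. The log2 fold change against FVB was -0.89 ± 0.04 (adjusted p = 3.38e-14, edgeR's quasi-likelihood test) and -0.52 with library size only. Hearts labelled Tg-GRK2 did not pass the test against FVB (-0.01 ± 0.04, adjusted p = 0.856 in edgeR).

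Most Nr3c2 reads were assigned to 2 transcripts with different first exons. The one with the upstream start (Nr3c2_3, ENSMUST00000109913, first base at 77626400 of chromosome 8 in GRCm39) has 494 bases of its own. It had 0, 33 and 20 reads in Tg-RKIP, 313, 200 and 222 in hearts labelled Tg-GRK2 and 200, 163 and 95 in FVB. All Tg-RKIP libraries were below the other 6, while hearts labelled Tg-GRK2 and FVB overlapped. Nr3c2_3 passed the expression filter only with libraries of the groups where it was higher, so its change is given without a p. The fitted log2 fold change of Nr3c2_3 between Tg-RKIP and FVB was -3.50 ± 0.97 (SE). It was -3.72 without Tg-RKIP replicate 3, -3.21 without FVB replicate 1 and -3.51 without FVB replicate 2. The one with the downstream start (Nr3c2_5, ENSMUST00000109912), which shares all its bases with other transcripts, had 614, 766 and 549 reads in Tg-RKIP, 619, 773 and 881 in hearts labelled Tg-GRK2 and 744, 848 and 793 in FVB. It fell by less, with a log2 fold change of -0.64 ± 0.10 (adjusted p = 0.00134 in edgeR). The difference between the changes of these 2 transcripts was not tested. Nr3c2_5 carried 97.6 ± 2.1% of Nr3c2 TPM in Tg-RKIP, 74.2 ± 9.4% in hearts labelled Tg-GRK2 and 82.9 ± 6.8% in FVB.

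Across the members, 13 transcripts passed the filter. Ace_2 and Ace_4 rose in Tg-RKIP against FVB, beside 15.0% of all transcripts that were higher. Nr3c2_5, Agtr1a_4 and Lnpep_6 fell, beside 19.0% of all transcripts that were lower. Enpep_4 and Nr3c2_3, low or without reads in Tg-RKIP, passed the filter only with the other groups. They are described by their values and not counted here. The share of TPM on the most abundant transcript was compared by exact two-sided permutation tests for 6 members in 3 comparisons. None of these 18 exact permutation tests can go below p = 0.1, and the smallest value after Benjamini-Hochberg adjustment was 0.2. Between Tg-RKIP and FVB that share differed by -4.57 percentage points for Ace (on Ace_2), -12.9 for Agt, 4.53 for Agtr1a, 14.7 for Nr3c2, 17.3 for Enpep and -0.51 for Lnpep.

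**Figure D4:**
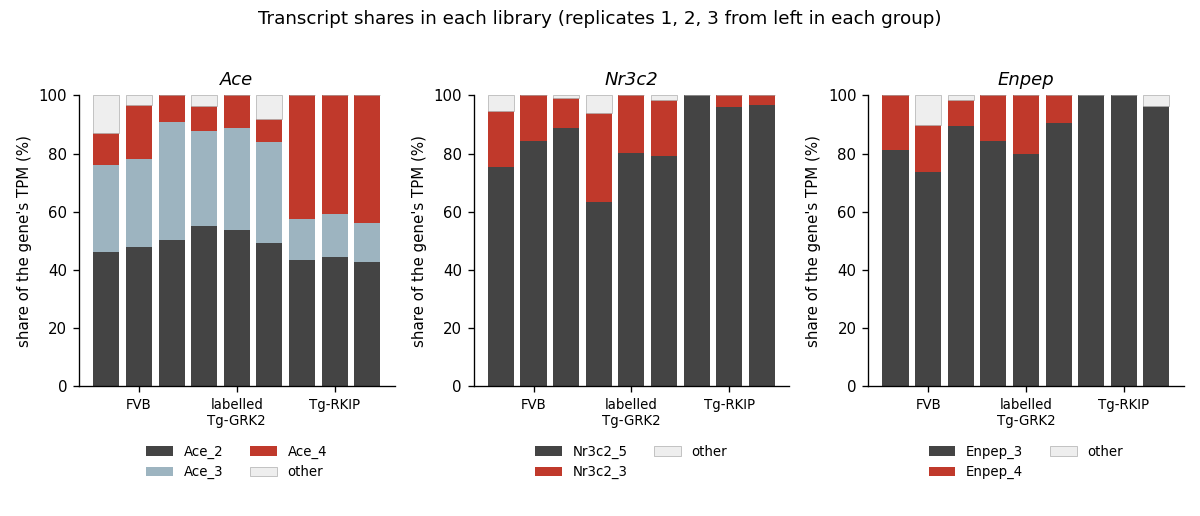
Share of each gene's TPM (percent, vertical axes) on its main transcripts in the 9 libraries for Ace, Nr3c2 and Enpep, with 3 bars per group for replicates 1, 2 and 3. The red part is the 14-exon transcript of Ace, on average 42.5% in Tg-RKIP, the upstream-start transcript of Nr3c2 and the decay transcript of Enpep, which has no reads in the Tg-RKIP bars. Light grey is all other transcripts.

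Beyond the members, 44 genes of the pathway were counted, of which 30 were tested. Of these, 16 rose and 11 fell in Tg-RKIP against FVB, beside 36.8% and 37.1% of all genes, and their median log2 fold change was 0.25. In hearts labelled Tg-GRK2, 6 were higher and 6 lower, beside 12.2% of all genes in each direction.

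Of 15 genes that process angiotensins and kinins, 14 were tested. In Tg-RKIP against FVB 11 were higher, beside 36.8% of all genes, and 3 lower, beside 37.1%, and the median was 0.58 against 0.01 for all genes. Mme, the neutral endopeptidase neprilysin, which cleaves angiotensin I and degrades natriuretic peptides, was the lowest. Its level was 2.24 ± 0.05 TPM in Tg-RKIP against 6.71 ± 0.37 TPM in FVB hearts (SD, n = 3), a log2 fold change of -1.63 ± 0.06 (adjusted p = 1.04e-16, edgeR's quasi-likelihood test), and it was higher in hearts labelled Tg-GRK2 (0.28 ± 0.05, adjusted p = 0.000115). Anpep, aminopeptidase N, rose by 1.07 ± 0.06. The log2 fold changes of the mast cell proteases Cma1, which can make angiotensin II without Ace, Mcpt4 and Cpa3 were 1.61, 1.41 and 1.13. Their reads were few, at 29 to 108 in Tg-RKIP and 5 to 26 in FVB. These 3 genes are also among the 5 mast cell markers (with Tpsb2 and Kit), which summed to 12.6 to 14.2 TPM in Tg-RKIP, 5.22 to 6.07 in hearts labelled Tg-GRK2 and 3.87 to 4.50 in FVB. The Cma1 call was lost with the most abundant transcript alone (adjusted p = 0.517). The lysosomal proteases Ctsd and Ctsa rose by 0.65 and 0.58, where Ctsa overlaps Pltp on the opposite strand, whose reads were also higher (2488 to 3347 against 1216 to 1424). The dipeptidyl peptidase Dpp3 rose by 0.58 and Atp6ap2, which encodes the prorenin receptor, by 0.58. In hearts labelled Tg-GRK2, Mme was the 1 gene of this list that passed the test.

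Few genes of the receptor list could be tested. Bdkrb2, the bradykinin B2 receptor, rose from 54, 60 and 59 reads in FVB to 230, 292 and 205 in Tg-RKIP, a log2 fold change of 1.70 ± 0.11 (adjusted p = 8.04e-12, edgeR's quasi-likelihood test), with 71, 62 and 75 reads in hearts labelled Tg-GRK2. Aplnr, the apelin receptor, fell by 0.68 on the log2 scale, a call that was lost in limma on log2(TPM + 0.1), with -0.03 and adjusted p = 0.835. Agtrap, which encodes a protein that binds the type 1 receptor and promotes its uptake, did not pass the test (0.04 ± 0.04, adjusted p = 0.338 in edgeR), but was called higher with library size only, at 0.42.

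Genes of aldosterone synthesis gave almost no reads. Cyp11b2, aldosterone synthase, had 0 reads in all 9 libraries, which allows up to 3 reads in any of them, and Cyp11b1 had 1 read in each of FVB replicates 1 and 3. Star, which carries cholesterol into mitochondria, was the 1 gene of 6 that was tested, with 172, 217 and 165 reads in Tg-RKIP against 57, 83 and 70 in FVB and a log2 fold change of 1.03 ± 0.13 (adjusted p = 1.99e-07 in edgeR).

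Of the partners and targets of the mineralocorticoid receptor, 11 were tested. In Tg-RKIP 3 were higher and 6 lower, beside 36.8% and 37.1% of all genes. Against the same FVB libraries, 3 in hearts labelled Tg-GRK2 were higher and 6 lower, beside 12.2% of all genes in each direction. Fkbp5, a corticosteroid-induced cochaperone, was at 23.1 ± 0.99 TPM in Tg-RKIP, 6.96 ± 0.51 in hearts labelled Tg-GRK2 and 9.96 ± 0.69 in FVB (SD, n = 3). On the TMM scale its log2 fold change against FVB was 0.90 ± 0.04 in Tg-RKIP and -0.70 ± 0.05 in hearts labelled Tg-GRK2, and the groups did not overlap. Zbtb16, another corticosteroid target, fell in both, by 0.91 and by 1.27. Lcn2, a target of aldosterone in the cardiovascular system, rose by 1.19 ± 0.18 in Tg-RKIP. Fkbp4, a cochaperone of steroid receptors, fell by 0.77, and Hsd11b1, which regenerates active glucocorticoid and overlaps Lamb3 on the opposite strand, by 0.72. Nr3c1, the glucocorticoid receptor, fell by 0.40 on the TMM scale but was at 34.6 ± 0.15 TPM in Tg-RKIP and 34.4 ± 0.21 in FVB, and its call was lost with library size only (-0.030, adjusted p = 0.232 in edgeR). Hsd11b2, which protects the mineralocorticoid receptor from glucocorticoids, had 0 to 6 reads and was not tested.

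**Figure D5:**
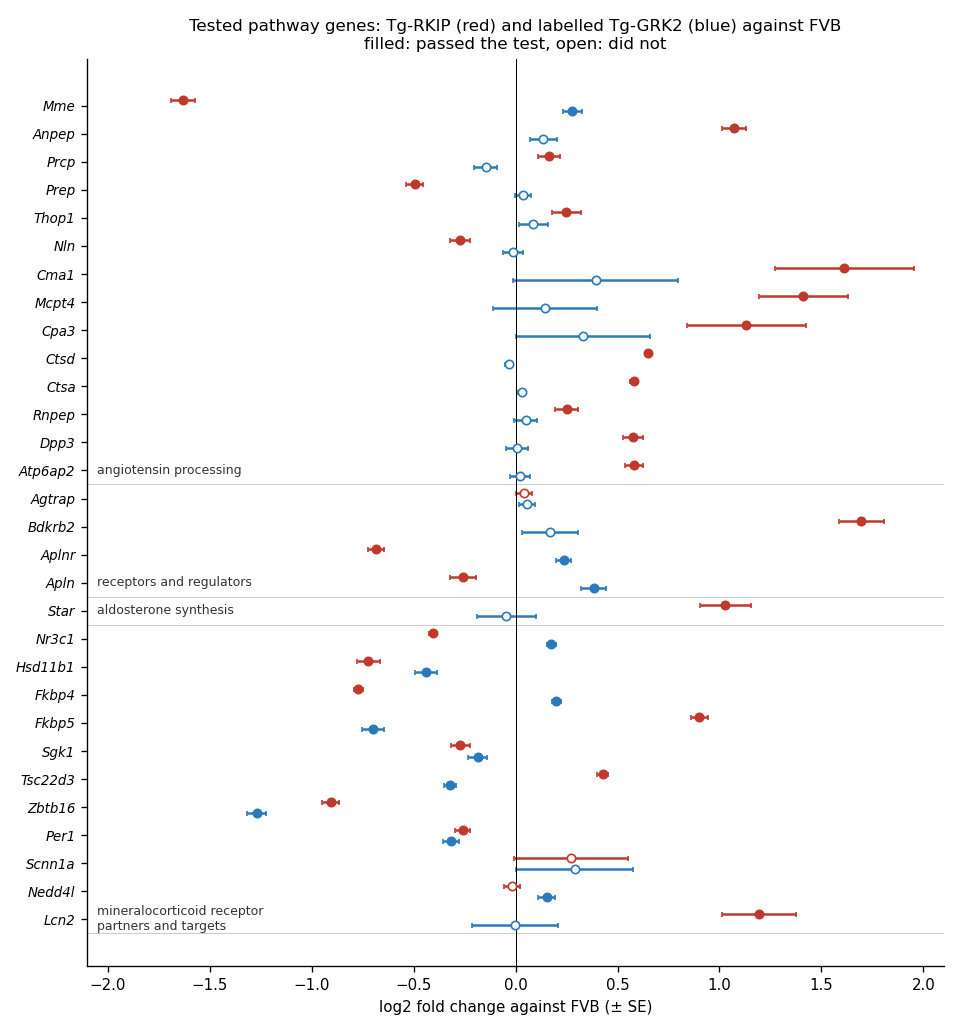
Log2 fold change against FVB (horizontal axis, with SE) of the 30 tested pathway genes, grouped by list, for Tg-RKIP (red) and hearts labelled Tg-GRK2 (blue), filled where the adjusted p was under 0.05. Most processing genes lie to the right of 0 in Tg-RKIP, with Mme at -1.63 the lowest. Several genes lie on opposite sides of 0 in the 2 comparisons, among them Fkbp5, Fkbp4 and Mme.

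A list of 11 genes known to respond to angiotensin II or aldosterone was counted on its own. All 11 were higher in Tg-RKIP than in FVB, beside 36.8% of all genes, from 0.24 (Cybb) to 4.56 (Spp1) with a median of 1.58. In hearts labelled Tg-GRK2, Rcan1 was higher (0.29) while Spp1 and Edn1 were lower (-1.42 and -0.48). These genes, named after their values were seen, include fibroblast and macrophage products, and the fibroblast and macrophage marker sums given above were highest in Tg-RKIP.

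Genes with the most similar pattern to Ace, Agt and Agtr1a were sought among 11352 genes with a mean of at least 100 reads, by the root mean square difference of mean-centred log2 CPM (reads scaled by TMM) over the 9 libraries. Closest to Ace were Tuba1a, Vim, Timp2, Vwf and Txndc5, with differences of 0.027 to 0.038. For Agtr1a they were Coq6, Cavin2, Filip1, Frs2 and Gm45670, with 0.045 to 0.047. For Agt, with fewer reads, they were Capn15, Alg11, Slc18b1, Abcc4 and Cmtr2, with 0.072 to 0.080. The 9 points fall into 3 groups and share their libraries and depths, so these values are a description.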

How the data were processed

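RNA of whole hearts was sequenced by the submitters as single reads of 50 bases from random-primed, fragmented mRNA. The authors deposited counts, the whole number of reads per Ensembl transcript without normalization for 127558 transcripts, and TPM per transcript, which equalled values recomputed from counts and transcript lengths to within 5.5e-06. The build is GRCm39 per the submitters' processing notes, and the aligner, the counting program and the treatment of shared reads are not given in the sources used here. Counts and TPM were summed by gene name. Differences in gene counts were assessed by edgeR 4.0.16 under R 4.3.3 (TMM, filterByExpr, glmQLFit, glmQLFTest, a mean per group, all 9 libraries), with Benjamini-Hochberg adjustment over the 15504 genes tested and a threshold of 0.05. Transcript counts were fitted in the same way, which was added after the data were seen. In simulated data, 99 of 15259 genes were changed by 0.5 on the log2 scale and 97 by 1. The fit of genes recovered 73.7% and 87.6% of them. With 92 of 32339 transcripts changed by 0.5 and 92 by 1, the fit of transcripts recovered 7.61% and 23.9%. A transcript that did not pass the test may thus still have changed. False calls were 6 of 164 for genes and 3 of 32 for transcripts. In the real data 11460 of 15504 genes were called between Tg-RKIP and FVB, so these rates may not hold there. TPM shares were compared by exact permutation tests, leaving out Mas1, Ren1 and Agtr2 for few reads. A value of 3 reads or fewer was taken as the floor, which covers counting error only. Alternatives were DESeq2 1.42.0 and its size factors, other scalings and filters, a replicate block, fits of 2 groups only, leaving out each library, limma 3.58.1 on log2(TPM + 0.1) and log2(TPM + 1), and the most abundant transcript alone. All 9 members are described. Pathway genes are named if called between Tg-RKIP and FVB with a log2 fold change of at least 0.5 in size, or if listed as direct partners. The 5 closest genes are given for Ace, Agt and Agtr1a. One gene each of the processing and response lists, and a ratio that used one of them, are not reported here and not counted. The members and lists were chosen with earlier results of these data known. Squared differences between libraries of a group, relative to sampling noise alone, averaged 1.74 to 2.86 per gene. Pairs with replicate 1 labelled Tg-GRK2 were apart, at 23.3 and 25.6. Each library counts as 1 sample, and the p-values rest on this spread. Promoter windows are from RefSeq on GRCm38.p6, in which 8 of the 9 members have an entry. Kidney and adrenal cortex markers summed to at most 0.40 and 2.71 TPM in any library, and adipocyte markers to 162 to 168 TPM in Tg-RKIP and 15.8 to 30.4 TPM in the others.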

Additional observations from a re-analysis of the deposited data

How the results depend on the processing

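Counts of members, Mas1 included, and of pathway genes called stayed within 1.5 times their values under all alternatives run, with 1 exception. Members called between hearts labelled Tg-GRK2 and FVB went from 2 to 1 in the 3 fits of limma on TPM. The members behind a similar count could differ. In Tg-RKIP against FVB, Agt and Enpep were also called, as higher, with library size only (adjusted p = 0.0437 and 0.000207 in edgeR). The same held in limma on log2(TPM + 0.1) (adjusted p = 0.0215 and 0.032), where Lnpep was not called. Of all genes, 3793 were called between hearts labelled Tg-GRK2 and FVB, against 2060 in limma on log2(TPM + 0.1) with no filter and 1665 with the most abundant transcript alone. Scaling decided the direction of some members in Tg-RKIP against FVB, and the cause was not tested. Agt turned from -0.07 to 0.31 with library size only, 0.11 with library size without mitochondrially encoded genes, 0.35 in limma on log2(TPM + 0.1) with or without filter and 0.26 on log2(TPM + 1). Enpep turned from -0.10 to 0.27, 0.072, 0.20 and 0.17 under the same settings, and to 0.026 with the most abundant transcript alone. Nr3c1 turned from -0.40 to 0.0077 and 0.0075 in limma. In Tg-RKIP against hearts labelled Tg-GRK2, Agt turned from -0.13 to 0.23, 0.044, 0.24 and 0.17. Values near 0 in hearts labelled Tg-GRK2 against FVB also changed sign, with Agt at -0.056 for the most abundant transcript alone, Nr3c2 at 0.036 and 0.032 in limma, and Lnpep at 0.0065 with size factors of DESeq2, 0.0087 with library size only, 0.0068 in DESeq2, 0.045 and 0.044 in limma and 0.0068 with the most abundant transcript alone. With a library left out, these ranged from -0.030 to 0.17 for Agt, -0.032 to 0.011 for Nr3c2 and -0.020 to 0.020 for Lnpep, and Ace_3 in Tg-RKIP against FVB from -0.12 to 0.037. As shares of reads in place of TPM, the difference between Tg-RKIP and FVB was -1.88 percentage points for Ace, 1.02 for Agtr1a and -0.11 for Lnpep. Over single genes and transcripts, 706 of 777 values under alternatives kept direction and side of the threshold. The replicate numbers did not pair the libraries, since deviations of equally numbered libraries correlated between -0.049 and 0.052. With the replicate block, the members called besides Mas1 were the same as without it in the 3 comparisons. The counts of pathway genes called, at 27, 12 and 26, were also as without it. Depth limited Ren1, Agtr2, Agtr1b, Cyp11b2 and Mas1, and a ratio of Agtr1a to Agtr2 was not run for that reason.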
